A study of Mus musculus with 16 samples.

Results

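Supporting cells of the cochlea at postnatal day 5 (P5), sorted as GFP+ cells, were compared with the remaining cochlear cells, sorted as GFP-. The members were the 2 libraries titled P5 Cochlea DMSO GFP+ and the 2 titled P5 Cochlea DMSO GFP-, so that 4 of the 16 libraries of the series carried the comparison, with 2 replicates in each group. All 4 came from mice of the B6;FVB-Tg(Lfng-EGFP)HM340Gsat/Mmucd line, in which a bacterial artificial chromosome with Lfng regulatory sequence drives GFP. P5 cochleas were explanted with the stria vascularis and lateral wall partly removed, kept for 24 hours in medium with EGF and FGF2 and in 0.04% DMSO, the vehicle, dissociated and sorted. The transgene sets what the sort can see: by the study's description it marks Deiters' cells, outer pillar cells and the border and inner phalangeal cells, while inner pillar cells are left unmarked, only the brightest cells were kept as GFP+, and cells of low fluorescence entered neither fraction. Nothing in the labels says that replicates came from separate animals or cultures, so the p-values measure the spread between these samples, which may be technical. Explants of the same line kept in DMSO at P0 and in 10 µM DAPT at P5 gave 4 libraries each for further comparisons. DAPT is an inhibitor of gamma-secretase, which releases the active part of Notch receptors.

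In the organ of Corti, the sensory epithelium of the cochlea, each hair cell is surrounded by supporting cells. Pillar cells frame the tunnel between inner and outer hair cells, Deiters' cells carry the outer hair cells, and border and inner phalangeal cells flank the inner hair cells. The cell types arise from one Sox2-expressing progenitor pool, in which Notch ligands on nascent hair cells hold their neighbours in the supporting cell state through Hes and Hey repressors. By the end of the first postnatal week supporting cells have left the cell cycle and are building stiff microtubule arrays, gap junctions and potassium channels, while hair cells acquire mechanotransduction and, in outer hair cells, motility.

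Sequences are shown for 3 genes because the results for Notch targets and for the reporter turn on them: Hes5 and Hey2 are the target genes with the largest differences between the fractions, and Lfng supplies the regulatory sequence of the reporter. The 250 bases before the transcription start are given 5′ to 3′ from RefSeq on build GRCm38.p6, and capitals mark GTGGGAA or its reverse complement TTCCCAC, a word bound by RBPJ, the DNA-binding partner of the Notch intracellular domain. Hes5 stands at chr4:154960673-154960922 (+ strand), Hey2 at chr10:30842784-30843033 (- strand) and Lfng at chr5:140607091-140607340 (+ strand).
Hes5: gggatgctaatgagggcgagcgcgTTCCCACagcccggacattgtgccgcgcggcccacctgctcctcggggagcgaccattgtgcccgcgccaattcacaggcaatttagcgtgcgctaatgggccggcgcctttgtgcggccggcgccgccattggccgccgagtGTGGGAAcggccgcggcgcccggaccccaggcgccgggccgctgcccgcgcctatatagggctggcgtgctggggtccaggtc
Hey2: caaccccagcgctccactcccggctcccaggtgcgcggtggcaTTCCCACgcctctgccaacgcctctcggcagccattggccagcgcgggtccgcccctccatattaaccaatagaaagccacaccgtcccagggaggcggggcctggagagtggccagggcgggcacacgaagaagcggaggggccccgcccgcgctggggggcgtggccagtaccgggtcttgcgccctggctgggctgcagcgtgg
Lfng: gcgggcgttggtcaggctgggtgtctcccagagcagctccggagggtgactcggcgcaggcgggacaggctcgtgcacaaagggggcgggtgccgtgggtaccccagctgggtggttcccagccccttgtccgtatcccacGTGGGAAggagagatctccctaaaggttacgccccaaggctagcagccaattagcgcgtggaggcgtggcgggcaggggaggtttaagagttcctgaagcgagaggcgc

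Both strands were searched, and the words did not overlap. Hes5 held 2 matches, at bases 226 to 220 and 83 to 77 before the start, whereas Hey2 held 1 at bases 207 to 201 and Lfng 1 at bases 109 to 103. Of 12 Notch genes looked up, 9 were matched in the table. Nrarp, Jag1, Notch1, Notch2, Notch3 and Notch4 held no match in the same window, and Hes1, Hey1 and Heyl had no entry. Of 32851 promoters of this length, 1779 (5.42%) held the word. A match describes letters and not a bound site.

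The GFP+ libraries held 19008122 and 20249037 counts in genes and the GFP- libraries 40746116 and 40581823. Reads outside annotated genes took 53.3 and 55.4% of the records of the GFP+ libraries and 13.7 and 7.16% of those of the GFP- libraries. Mitochondrial ribosomal RNA took 29.8 and 25.3% of the gene counts of the former and 0.0545 and 0.0633% of those of the latter. Replicates correlated with r = 0.969 (GFP+) and 0.988 (GFP-) on log2(CPM + 1) across genes, and 1477 and 518 of 19008 tested genes differed by more than 2-fold between replicates of the same group. Across protein-coding genes the fold change fell with GC content (Spearman correlation -0.32) and rose with exonic length (Spearman correlation 0.15), a description over 15806 genes that share the same 4 libraries. The library numbers of the fractions formed separate series, though no label names a run. The study describes an amplification of cDNA from small samples of cultured GFP+ and GFP- cells before library preparation, and limits it to neither fraction. Whether run or amplification differed between the fractions is not stated, so fraction, library series and any such difference cannot be told apart.

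Of 15806 protein-coding genes tested, 2296 (14.5%) were higher and 2760 (17.5%) lower in GFP+ than in GFP- cells (edgeR quasi-likelihood test, Benjamini-Hochberg adjusted p under 0.01 and fold over 2, called the limits from here on). Levels are given as CPM, counts scaled to the TMM library size, and differences as log2 fold changes of GFP+ over GFP-, with the standard error (SE) of the fit. The median protein-coding gene stood at -0.22 on the log2 scale, and this centre depended on the scaling: it was -0.11 with DESeq2 size factors, 0.09 with upper quartile factors and -0.57 with library totals, and the share of higher genes among those called was 45.4% with TMM, 61.2% with upper quartile factors, 29.6% with library totals and 54.5% with offsets for GC content and exonic length. Of 430 genes on the lists below 412 passed the filter on low counts, and 214 of these passed the limits. Leaving out GFP- replicate 1 left 791 higher and 1092 lower protein-coding genes, and leaving out GFP- replicate 2 left 820 and 1019. In RNA of whole fractions, fewer cells of a type and less RNA per cell cannot be told apart.

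GFP+ cells carried the supporting cell genes at far higher levels than GFP- cells. Lfng (chr5:141083295-141091497, build NCBIM37), the glycosyltransferase that modifies Notch receptors and the source of the reporter's sequence, stood at 619.6 and 824 CPM in the GFP+ libraries and 20.4 and 17.02 CPM in the GFP- libraries (log2 fold change 5.27, SE 0.28, adjusted p = 5.38e-04). Ttyh1, a membrane protein of glia-like cells, stood at 308 and 369 CPM in the GFP+ libraries and 33.03 and 30.1 CPM in the GFP- libraries (log2 fold change 3.42, SE 0.21, adjusted p = 5.60e-04). Sox2, the transcription factor of the prosensory lineage, reached 89.9 and 128 CPM in the GFP+ libraries and 44.6 and 56.8 CPM in the GFP- libraries, and with a log2 fold change of 1.11 (SE 0.24, adjusted p = 0.0104) it missed the limits. For all 3 genes both GFP+ libraries lay above both GFP- libraries, and the separation was wide for Lfng and Ttyh1 and narrow for Sox2.

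Of 28 supporting cell markers 24 were higher and 1 lower, with a median log2 fold change of 4.27 (all protein-coding genes, 14.5% higher, median -0.22). The pan-supporting genes gave 11 higher of 14 and a median of 3.14, and the genes of Deiters' and pillar cells 13 higher of 14 and a median of 6.17. These counts and medians are in part set by how the list was chosen, since 13 of the 28 markers, 10 of them in the Deiters' and pillar cell group, are among the 20 genes that the study took from sorted P6 cells of this line for their enrichment in GFP+ cells, and Lfng is the source of the reporter. Of the other 15 markers 11 were higher and 1 lower, with a median of 3.11, a split made after the values were seen. The medians were then 2.97 over 11 pan-supporting genes and 3.71 over 4 genes of Deiters' and pillar cells. This remainder is not free of the same choice, since it still holds Lfng. The study also reported Sox2, Sox21, Jag1, Cdkn1b, Hes5, Hey2, Lgr5, Ttyh1 and Gjb6 as enriched in P6 GFP+ cells. Prox1, a homeodomain factor of Deiters' and pillar cells, stood at 293 and 381 CPM in the GFP+ libraries and 2.08 and 2.003 CPM in the GFP- libraries (log2 fold change 7.37, SE 0.27, adjusted p = 5.38e-04). Fgfr3, the receptor that directs pillar cell fate, stood at 428 and 489.7 against 16.5 and 11.4 CPM (log2 fold change 5.04, SE 0.29, adjusted p = 5.38e-04). Lgr5, a receptor for R-spondins found in supporting cells that can divide and form hair cells, stood at 232 and 186 against 12.9 and 14.4 CPM (log2 fold change 3.94, SE 0.22, adjusted p = 5.38e-04). In each of these genes the GFP- libraries held a small fraction of the GFP+ level. Kcnj10, a potassium channel of supporting cells and stria, stood at 460.3 and 673 against 64.9 and 61.95 CPM (log2 fold change 3.16, SE 0.26, adjusted p = 8.43e-04), and Cdkn1b, the cyclin-dependent kinase inhibitor p27Kip1, at 328 and 455 against 78.8 and 83.1 CPM (log2 fold change 2.27, SE 0.24, adjusted p = 0.00124).

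The markers that departed from this pattern were few. Ngfr, a neurotrophin receptor used as a pillar cell marker and also found in glia, was the one marker that was lower. The study reported the opposite direction for it in freshly sorted P6 cells. Ngfr stood here at 39.1 and 17.2 CPM in the GFP+ libraries and 90.5 and 114 CPM in the GFP- libraries (log2 fold change -1.86, SE 0.39, adjusted p = 0.00916). It lost its call with upper quartile factors, thinned libraries, a fit of protein-coding genes alone and the offsets, and when either GFP- library was left out. Slc1a3, a glutamate transporter of inner phalangeal and border cells, stood at 265 and 316 against 217 and 235 CPM (log2 fold change 0.36), and Gjb2, the connexin 26 gene, at 646 and 791 against 241 and 414 CPM (log2 fold change 1.13, adjusted p = 0.0232). Neither passed the limits, although their libraries did not overlap. Of the markers, 24 were higher without GFP- replicate 1 and 25 without GFP- replicate 2. The 28 markers summed to 12054 and 15560.1 CPM in the GFP+ libraries and to 1110.3 and 1401 CPM in the GFP- libraries.

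**Figure D1:**
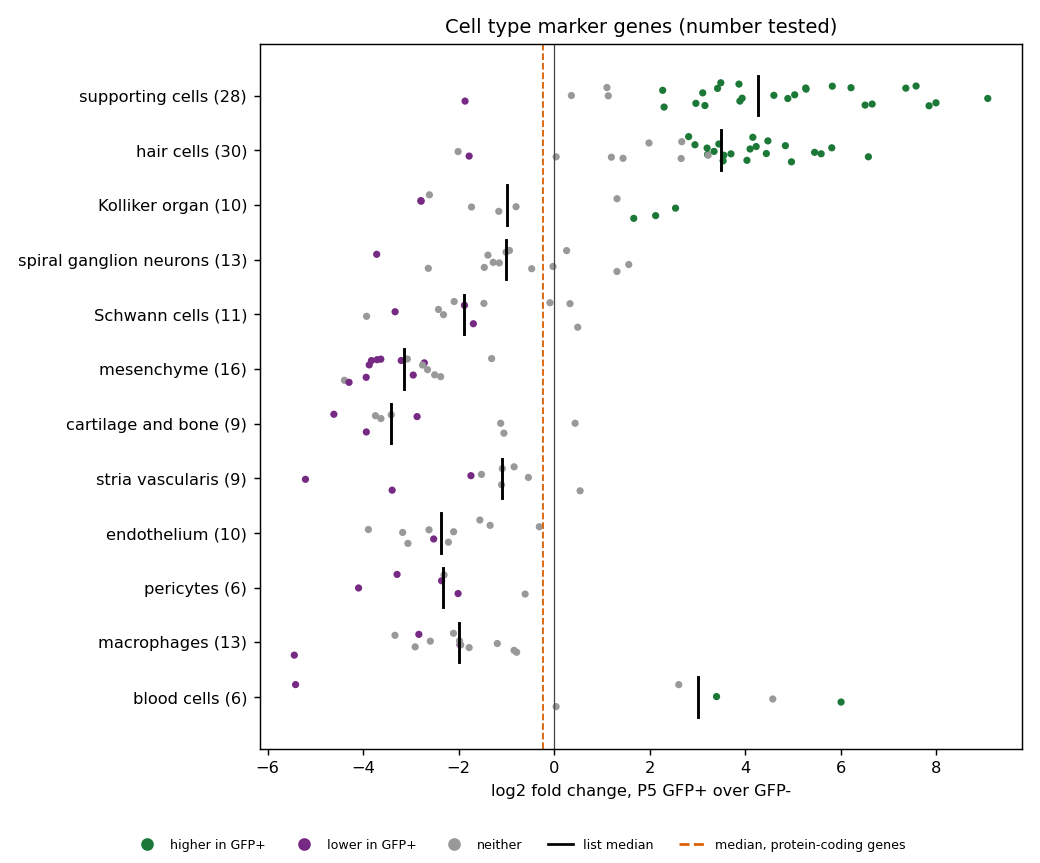
Log2 fold change of GFP+ over GFP- cells at P5 for each tested marker gene (points), by cell type list, with list medians as black bars and the median of all protein-coding genes as a dashed line. Supporting cell and hair cell genes lie mostly to the right (medians 4.27 and 3.50), and mesenchyme and cartilage genes to the left (medians -3.14 and -3.41).

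The 20 genes from freshly sorted P6 cells, 13 of which are among the 28 markers above, are no independent evidence of direction, because the study chose them for enrichment in sorted GFP+ cells of the same line. All 20 were higher here, with log2 fold changes between 3.68 (Rnd1, a small GTPase) and 9.08 (Umodl1, an extracellular matrix protein). Umodl1 stood at 395 and 416 CPM in the GFP+ libraries and 0.557 and 0.935 CPM in the GFP- libraries (log2 fold change 9.08, SE 0.35, adjusted p = 5.38e-04). Rorb, a nuclear receptor, stood at 482 and 608 against 1.86 and 2.85 CPM (log2 fold change 7.85, SE 0.36, adjusted p = 5.38e-04), and Tsga14 (Cep41), a centrosomal protein needed for tubulin glutamylation in cilia, at 2533 and 3403 against 14.3 and 16.7 CPM (log2 fold change 7.58, SE 0.37, adjusted p = 5.38e-04). Tsga14 overlaps an annotated transcript on the other strand. Of the 20, 19 were also higher in the DAPT libraries, Agr3 being the exception.

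Genes of hair cells were also higher in the GFP+ fraction. Of 31 hair cell genes 30 were tested, 29 of them protein-coding in this annotation. Of the 30, 21 were higher and 1 lower, with a median log2 fold change of 3.50 (14.5% of protein-coding genes higher). The study had listed Strc, Loxhd1, Ush1c, Slc26a5, Otof, Tmc1, Pcdh15, Pou4f3, Smpx and Grxcr2 among deafness genes enriched in P6 GFP+ cells. These members are therefore no independent evidence of direction. Genes of the hair bundle and of transduction gave 11 higher of 14, transcription factors 4 of 6 tested and genes of synapse and soma 6 higher and 1 lower of 10. Insm1, a factor of outer hair cell identity, was filtered for low counts. The list summed to 1248 and 1513 CPM in the GFP+ libraries and 408 and 431 CPM in the GFP- libraries.

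Genes of outer hair cells were among those that rose. Slc26a5, which encodes prestin, the motor of outer hair cells, stood at 52.1 and 58.4 CPM in the GFP+ libraries and 0.664 and 1.62 CPM in the GFP- libraries (log2 fold change 5.59, SE 0.46, adjusted p = 8.18e-04). Ocm, the outer hair cell calcium buffer oncomodulin, stood at 36.7 and 46.1 against 2.46 and 4.65 CPM (log2 fold change 3.54, SE 0.37, adjusted p = 0.0013), and Strc, which encodes stereocilin and links the outer hair cell bundle to the tectorial membrane, at 52.02 and 59.5 against 1.54 and 2.34 CPM (log2 fold change 4.84, SE 0.30, adjusted p = 5.60e-04). For all 3 both GFP+ libraries lay far above both GFP- libraries. Otof, otoferlin, the calcium sensor of hair cell synapses, rose as well (49.5 and 60.2 against 3.896 and 4.52 CPM, log2 fold change 3.704, SE 0.24, adjusted p = 5.60e-04). Chrna10, a subunit of the acetylcholine receptor of efferent synapses, was higher too (log2 fold change 3.55, SE 0.38, adjusted p = 0.00131), while its partner Chrna9 was not called (1.88 and 6.81 against 0.193 and 0.734 CPM, adjusted p = 0.0259).

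Not every hair cell gene was higher. Slc17a8, the vesicular glutamate transporter of inner hair cells, stood at 10.8 and 3.92 CPM in the GFP+ libraries and 22.8 and 36.2 CPM in the GFP- libraries (log2 fold change -2.01, adjusted p = 0.017), outside the limits. Calb2, the calcium buffer calretinin, which is enriched in inner hair cells and in neurons, was lower (2.31 and 2.18 against 7.899 and 7.52 CPM, log2 fold change -1.78, SE 0.39, adjusted p = 0.00987) and lost its call with DESeq2 size factors, upper quartile factors, the replicate block, all groups in the fit, thinned libraries, protein-coding genes alone and the offsets, and without either GFP- library. Myo6, an unconventional myosin of all hair cells, stood at 324 and 304 against 295 and 313 CPM (log2 fold change 0.04), and Myo7a, the motor of the transduction complex, at 18.3 and 15.97 against 8.05 and 6.85 CPM (log2 fold change 1.200, adjusted p = 0.0125). Pou4f3, a hair cell survival factor, stood at 3.83 and 2.67 against 0.278 and 0.734 CPM (adjusted p = 0.0166). Other bundle genes were among the largest differences of the list, as with Myo3a at 18.8 and 27.9 against 0.257 and 0.223 CPM, Ptprq, a phosphatase of the stereocilia base, at 143 and 191 against 2.48 and 3.45 CPM and Loxhd1, a protein of the bundle membrane, at 21.6 and 31.4 against 0.535 and 0.668 CPM.

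Atoh1, the factor that starts hair cell differentiation, was at 0.608 and 0.763 CPM in the GFP+ libraries and rested on 3 counts in the GFP- libraries, which gave a ratio of 21.1 with an exact 95% interval for counting error of 6.40 to 109. Its call ended without GFP+ replicate 1, without either GFP- library, with the replicate block, without the filter on low counts, with all groups in the fit, with thinned libraries and with the offsets and the block together. Whether hair cells were present in the GFP+ sort was not tested. Without either GFP- library 15 hair cell genes were higher and none lower. The 21 hair cell genes higher in DMSO were all higher in the separate DAPT libraries as well.

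Genes of mesenchyme and pericytes were called lower in GFP+ cells in 9 of 16 and 4 of 6 tested and those of cartilage and bone, endothelium and macrophages in smaller shares, none was called higher, and for these lists GFP+ replicate 1 held more of their RNA than replicate 2. Mesenchymal genes gave 9 lower of 16, none higher, and a median of -3.14 (17.5% of protein-coding genes lower, median -0.22). Col1a2, a chain of fibrillar collagen I, stood at 497 and 92.8 CPM in the GFP+ libraries and 5236 and 3774 CPM in the GFP- libraries (log2 fold change -3.93, SE 0.81, adjusted p = 0.00844). Pou3f4, a factor of the otic mesenchyme, stood at 62.6 and 11.7 against 455 and 462 CPM (log2 fold change -3.63, SE 0.75, adjusted p = 0.00834), and Twist1, a mesenchymal basic helix-loop-helix factor, at 4.38 and 0.382 against 48.6 and 43.5 CPM (log2 fold change -4.29, SE 0.87, adjusted p = 0.00791). Both GFP+ libraries were below both GFP- libraries in each gene, and GFP+ replicate 1 was far above replicate 2. The list summed to 3480.2 and 833 CPM in GFP+ replicates 1 and 2, a ratio of 4.18, and to 21157 and 18448 CPM in the GFP- libraries. Without GFP+ replicate 1 all 16 genes were lower, with a median of -4.90. Without either GFP- library none of the 16 passed the limits. With the offsets 5 were lower, and with the replicate block 12.

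Chondrocyte and osteoblast genes gave 3 lower of 9 and a median of -3.41, and their sum was 6.25 times higher in GFP+ replicate 1 than in replicate 2. Acan, the proteoglycan aggrecan of cartilage, stood at 3.04 and 0.273 against 39.2 and 40.5 CPM (log2 fold change -4.61, SE 0.84, adjusted p = 0.00558), while Spp1, the bone matrix protein osteopontin, at 110.1 and 14.8 against 669 and 1000.1 CPM, did not pass the limits (adjusted p = 0.0141). Without GFP+ replicate 1, 7 of 9 were lower, and with the offsets, or without either GFP- library, none was. Pericyte genes gave 4 lower of 6, and 6 without GFP+ replicate 1. Cspg4, the proteoglycan NG2 of mural cells, stood at 3.46 and 1.96 against 52.6 and 39.8 CPM (log2 fold change -4.09, SE 0.36, adjusted p = 8.82e-04), and Pdgfrb, the receptor that recruits them, at 106 and 30.5 against 599 and 729.9 CPM (log2 fold change -3.29, SE 0.59, adjusted p = 0.00528). Endothelial genes gave 1 lower of 10, a share under the 17.5% of all protein-coding genes. This was Kdr, the VEGF receptor (7.35 and 2.89 against 28.4 and 30.3 CPM, log2 fold change -2.52, SE 0.45, adjusted p = 0.00535), and 8 were lower without either GFP+ library. Macrophage genes gave 3 lower of 13, a share near that background, with C1qa, a complement subunit, at 1.03 and 0 against 24.2 and 19.6 CPM (log2 fold change -5.44, SE 1.02, adjusted p = 0.00601), and 12 lower without GFP+ replicate 1. The last 3 lists had medians between -2.37 and -1.98, and without either GFP- library 1 pericyte gene and no endothelial or macrophage gene was lower.

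Schwann cell genes gave 3 lower of 11 (17.5% of protein-coding genes) and a median of -1.88. Prx, the myelin protein periaxin, stood at 3.34 and 2.62 against 36.9 and 23.01 CPM (log2 fold change -3.33, SE 0.35, adjusted p = 0.00131), and Mbp, myelin basic protein, at 31.8 and 17.8 against 82.7 and 77.3 CPM (log2 fold change -1.69, SE 0.30, adjusted p = 0.0051). Sox10, a factor of glia and of the otic epithelium, and Erbb3, the neuregulin receptor, had values close to each other in the fractions, at 91.95 and 109 against 80.6 and 78.6 CPM and 132 and 143 against 98.8 and 96.4 CPM. Without either GFP+ library 7 of the 11 were lower, and without either GFP- library 2. Spiral ganglion genes gave 1 lower of 13 tested, a share under that background. This was Gap43, a growth cone protein (5.53 and 1.04 against 38.98 and 46.6 CPM, log2 fold change -3.71, SE 0.69, adjusted p = 0.00592). Neurod1 was filtered, and 4 were lower without GFP+ replicate 1 and none without either GFP- library. Snap25, a synaptic protein that hair cells also use, stood at 10.1 and 8.77 against 4.47 and 3.12 CPM, outside the limits (adjusted p = 0.0263).

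Of the melanocyte genes of the stria 3 of 6 were lower (17.5% of protein-coding genes), with Dct, an enzyme of melanin synthesis, at 6.62 and 0.491 against 114 and 146 CPM (log2 fold change -5.21, SE 0.96, adjusted p = 0.0058). Marginal cell genes were at low levels in both fractions and did not pass the limits in any of 3 tested, with Kcne1, a subunit of the potassium channel that feeds endolymph, at 0 and 0.545 against 0.492 and 0.512 CPM, and Bsnd was filtered. Blood cell genes had summed levels of 12.6 to 18.8 CPM per library. Hba-a1, alpha globin, was lower (0.547 and 0.0545 against 13.9 and 11.4 CPM, log2 fold change -5.41, SE 0.78, adjusted p = 0.00286), while Alas2, the erythroid enzyme of haem synthesis, was higher (10.3 and 13.8 against 1.46 and 0.823 CPM, log2 fold change 3.402, SE 0.47, adjusted p = 0.0025), so the erythroid genes did not move one way. Ngp, a neutrophil granule gene, was higher on 2 counts in the GFP- libraries (ratio 73.7, exact 95% interval 19.5 to 624). Slc4a1, S100a8 and Elane were among the genes filtered.

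**Figure D2:**
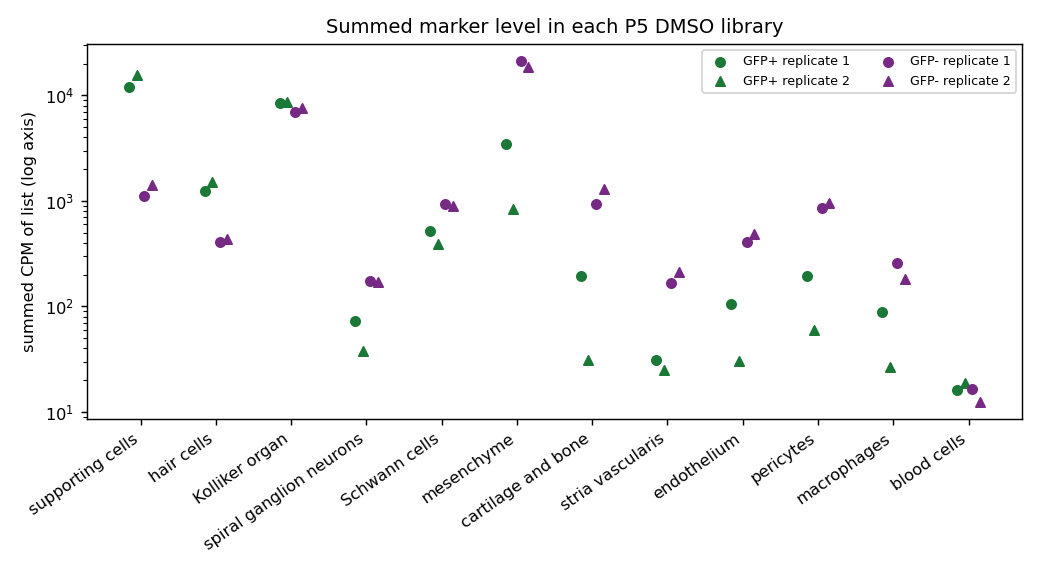
Summed CPM (log axis) of each cell type list in the 4 P5 DMSO libraries, with GFP+ in green, GFP- in purple, replicate 1 as circles and replicate 2 as triangles. Mesenchyme sums to 3480.2 and 833 CPM in the GFP+ libraries and to 21157 and 18448 CPM in the GFP- libraries.

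Kölliker's organ is the transient epithelium medial to the inner hair cells that secretes the tectorial membrane. Of 10 of its genes 3 were higher, 2 lower and 5 outside the limits. Of all protein-coding genes 14.5% were higher and 17.5% lower, so the lower share was near that background. Calb1, the calcium buffer calbindin, was higher (59.3 and 56.03 against 7.69 and 12.1 CPM, log2 fold change 2.54, SE 0.27, adjusted p = 0.00134), as was Tecta, the tectorial membrane protein alpha-tectorin (1083 and 1593 against 379.7 and 462 CPM, log2 fold change 1.67, SE 0.29, adjusted p = 0.00492). Epyc, a small proteoglycan, stood at 188 and 90.3 against 696 and 1220.1 CPM (log2 fold change -2.78, SE 0.46, adjusted p = 0.00415) and was lower. Tectb, beta-tectorin, stood at 6286 and 6468 CPM in the GFP+ libraries and 2102 and 3012 CPM in the GFP- libraries, and its difference did not pass the limits (log2 fold change 1.32, adjusted p = 0.0199).

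Genes of the tectorial membrane matrix gave 2 higher and 5 lower of 11 tested (14.5 and 17.5% of protein-coding genes). The 2 that rose were the non-collagenous proteins Tecta and Otog, the latter, one of the P6 genes of the study, otogelin, at 1657 and 2211 CPM in the GFP+ libraries and 77.02 and 82.2 CPM in the GFP- libraries (log2 fold change 4.603, SE 0.30, adjusted p = 5.61e-04). Otoa, otoancorin, which is not a collagen, stood at 38.8 and 61.5 against 97.02 and 127 CPM and was outside the limits (log2 fold change -1.16, adjusted p = 0.0137). The 5 that fell were collagen chains. Col9a2 stood at 103 and 96.5 against 1926 and 1543 CPM (log2 fold change -4.12, SE 0.27, adjusted p = 5.64e-04), Col9a1 at 369 and 253 against 3160.4 and 2668 CPM (log2 fold change -3.23, SE 0.33, adjusted p = 0.00118) and Col2a1, also the main collagen of cartilage, at 2379 and 1987 against 14755 and 12468 CPM (log2 fold change -2.64, SE 0.39, adjusted p = 0.00312). Col11a1 was outside the limits (log2 fold change -1.16, adjusted p = 0.0119). With the offsets Col2a1 and Col11a2 lost their calls, and Col2a1 lost it when either GFP+ library was left out.

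Of 29 members of the Notch pathway 28 were tested, 6 were higher and 6 lower, shares close to those of all protein-coding genes (14.5% higher and 17.5% lower), and the median was 0.04 (all protein-coding genes -0.22). Library totals put this median at -0.30 and that of all protein-coding genes at -0.57, so its sign depended on the scaling. Among the targets 4 of 6 were higher. Hes5, Hey1, Hey2, Heyl, Jag1 and Lfng were all reported by the study as enriched in P6 GFP+ cells of this line. Their rise here is therefore no independent evidence of direction. Hes5, a repressor that holds supporting cell fate, stood at 7.597 and 7.09 CPM in the GFP+ libraries and 0.0642 and 0.08901 CPM in the GFP- libraries (log2 fold change 6.51, SE 0.57, adjusted p = 8.88e-04), and Hey2 at 111 and 128 CPM in the GFP+ libraries and 9.31 and 12.02 CPM in the GFP- libraries (log2 fold change 3.49, SE 0.22, adjusted p = 5.60e-04). Hes5 was close to the floor of 0.0642 and 0.0668 CPM that 3 counts give in the GFP- libraries. Hey1 stood at 215 and 282 against 71.2 and 75.3 CPM (log2 fold change 1.76, SE 0.21, adjusted p = 0.00178) and Heyl, a related repressor also active in vascular smooth muscle, at 225 and 319.6 against 59.3 and 87.2 CPM (log2 fold change 1.896, SE 0.28, adjusted p = 0.00317). In all 4 genes both GFP+ libraries were above both GFP- libraries. Hes1, the broadly expressed family member, was at 13.1 and 20.9 against 36.9 and 31.9 CPM (log2 fold change -1.01, adjusted p = 0.0231), and Nrarp, a feedback inhibitor of the Notch complex, at 18.4 and 27.96 against 8.26 and 11.6 CPM (adjusted p = 0.0196). Both missed the limits.

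Of the ligands Jag1, the ligand that supporting cells themselves carry, was higher (559 and 764 against 69.9 and 82.98 CPM, log2 fold change 3.11, SE 0.26, adjusted p = 8.43e-04), and Dll1, a ligand of nascent hair cells, was lower on few counts (0.547 and 0.654 against 4.45 and 3.52 CPM, log2 fold change -2.72, SE 0.53, adjusted p = 0.00676). Jag2 and Dll4, a ligand of hair cells and one of vessels, stood at 5.04 and 2.62 against 6.72 and 5.79 CPM and 1.28 and 0.981 against 4.39 and 5.94 CPM and were not called, and Dll3 was filtered. Of the 4 receptors 2 were lower and none higher. Notch1 stood at 229.5 and 268 CPM in the GFP+ libraries and 134 and 138 CPM in the GFP- libraries and, with a log2 fold change of 0.87 (adjusted p = 0.00956), was under the fold limit. Notch2 was lower (41.6 and 23.3 against 114 and 104 CPM, log2 fold change -1.75, SE 0.30, adjusted p = 0.00453), as was Notch4, a receptor of endothelium (7.11 and 2.07 against 46.6 and 26.8 CPM, log2 fold change -3.01, SE 0.60, adjusted p = 0.00758), and Notch3, found in mural cells, was at 63.6 and 86.1 against 57.9 and 51.6 CPM (log2 fold change 0.45). Per kilobase of exon, the level in GFP+ cells was 17.5 CPM for Notch1, 3.09 for Notch2, 9.301 for Notch3 and 0.5695 for Notch4.

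Modulators other than Lfng were lower or level. Rfng, a second fringe enzyme, was lower (11.1 and 13.1 against 37.3 and 30.8 CPM, log2 fold change -1.49, SE 0.23, adjusted p = 0.00353), as were Pofut1, which adds the fucose that fringe enzymes extend (40.2 and 28.4 against 74.5 and 76.8 CPM, log2 fold change -1.14, SE 0.22, adjusted p = 0.00673), and Dtx3, a ubiquitin ligase (39.4 and 36.2 against 279 and 116 CPM, log2 fold change -2.39, SE 0.42, adjusted p = 0.00492). The nuclear members Rbpj, Maml1, Maml2 and Maml3 stayed within log2 fold changes of -0.93 and 0.44, and none was called. With the offsets 10 members were higher and 3 lower, and Notch4, Rfng, Dtx3 and Dll1 lost their calls. Without GFP+ replicate 1 the counts were 7 and 8, and without GFP- replicates 1 and 2 in turn they were 4 and 1 and then 6 and 1.

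**Figure D3:**
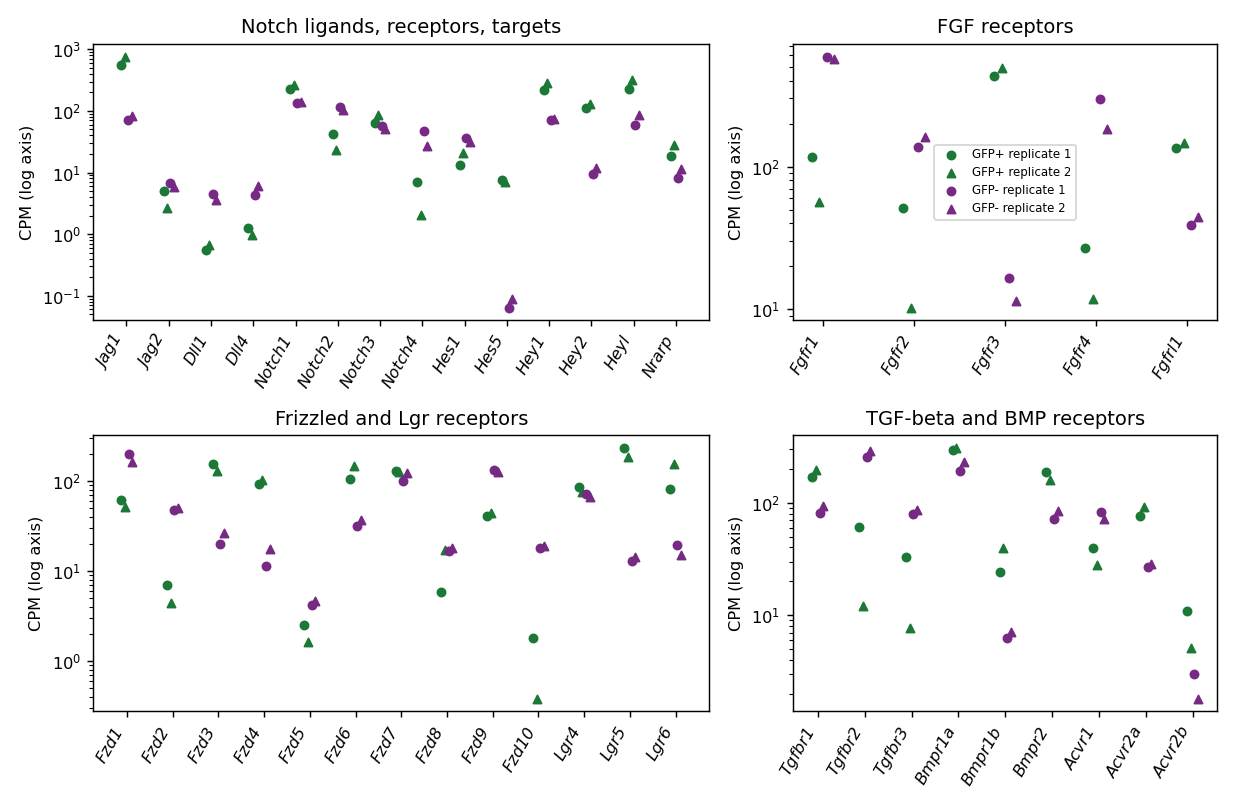
CPM (log axis) of Notch genes, Frizzled and Lgr receptors, FGF receptors and TGF-beta and BMP receptors in the 4 P5 DMSO libraries, with GFP+ in green, GFP- in purple, replicate 1 as circles and replicate 2 as triangles. Hes5, Hey2, Fgfr3, Lgr5 and Bmpr1b lie higher in both GFP+ libraries, and Notch4, Fgfr4, Fzd2 and Fzd10 lower.

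Wnt signals act on Frizzled receptors with the co-receptors Lrp5 and Lrp6, and R-spondins acting on Lgr receptors strengthen them. The pathway gave 10 higher and 16 lower of 48 tested (14.5 and 17.5% of protein-coding genes), with a median of -0.88, and Wnt10a, Dkk1 and Rspo4 filtered. The study reported Wnt7a, Fzd4, Fzd6, Lgr5, Sfrp1 and Kremen1 as higher in P6 GFP+ than in GFP- cells. These members are therefore no independent evidence of direction. Of 17 receptors 5 were higher and 6 lower. Fzd3 and Fzd4 were higher at 152 and 129 against 19.99 and 26.5 CPM and 91.8 and 101 against 11.5 and 17.6 CPM (2.595 and 2.73 on the log2 scale, SE 0.22 and 0.26), as were Fzd6 (log2 fold change 1.87) and the R-spondin receptor Lgr6 (81.9 and 154 against 19.5 and 14.98 CPM, log2 fold change 2.78, SE 0.35, adjusted p = 0.00195). Fzd2 was lower at 6.93 and 4.41 against 47.97 and 50.3 CPM (log2 fold change -3.12, SE 0.28, adjusted p = 9.43e-04) and Fzd10 at 1.82 and 0.382 against 18.2 and 18.8 CPM (log2 fold change -4.08, SE 0.66, adjusted p = 0.00403). Fzd1 and Lrp5 were lower too (-1.67 and -1.27 on the log2 scale). Lgr4, Lrp6 and Fzd7 stayed within 0.39 of 0 on that scale and were not called. Fzd9 was called lower (-1.61, 40.8 and 44.1 against 132 and 127 CPM), but its sign turned with the offsets, to 0.22.

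Among the ligands Wnt7a, a ligand of planar cell polarity in the organ of Corti and a P6 gene of the study, was the one that rose, at 53.4 and 78.9 CPM in the GFP+ libraries and 2.505 and 3.45 CPM in the GFP- libraries (log2 fold change 4.47, SE 0.31, adjusted p = 6.34e-04). Wnt5a, a non-canonical ligand, was lower (78.5 and 32.2 against 277 and 262 CPM, log2 fold change -2.28, SE 0.42, adjusted p = 0.00569), as were Wnt5b, Wnt6 and Wnt9a, whose log2 fold changes were -2.11, -4.34 and -2.53. Of the secreted and surface modulators Sfrp1, a decoy for Wnt ligands, was higher (499 and 692 against 67.7 and 114 CPM, log2 fold change 2.71, SE 0.34, adjusted p = 0.00189), as was Kremen1, a receptor for Dkk proteins that restrains Lrp6 (561 and 836 against 133 and 166 CPM, log2 fold change 2.23, SE 0.28, adjusted p = 0.00203), and Wif1, another decoy, was lower (11.2 and 1.799 against 101 and 101 CPM, log2 fold change -3.97, SE 0.75, adjusted p = 0.00643). Rspo1 stood at 0.182 and 0.109 against 3.49 and 3.98 CPM and was lower (log2 fold change -4.66, SE 0.65, adjusted p = 0.0026). Axin2, a feedback target used as a readout of canonical signalling, was lower (23.5 and 14.6 against 72.2 and 66.6 CPM, log2 fold change -1.86, SE 0.27, adjusted p = 0.0028), whereas Znrf3, a ligase that removes Frizzled receptors, was higher (65.8 and 85.4 against 19.9 and 20.5 CPM, log2 fold change 1.905, SE 0.21, adjusted p = 0.00135). Tcf7l2, a nuclear effector, was higher (76.9 and 85.02 against 19.01 and 16.3 CPM, log2 fold change 2.197, SE 0.19, adjusted p = 8.82e-04), Lef1 was lower (log2 fold change -2.71), and Tcf7l1 was level (24.9 and 22.3 against 26.4 and 25.3 CPM) but higher with the offsets, at 1.32. Beta-catenin itself, Ctnnb1, stood at 583 and 481 against 1242 and 1772 CPM (log2 fold change -1.503, SE 0.29, adjusted p = 0.00647) and lost its call when either GFP+ library or GFP- replicate 2 was left out, with upper quartile factors and with the offsets and the block together. The offsets moved the pathway's counts to 12 higher and 5 lower, with Fzd1, Fzd10, Lrp5, Ror2, Wnt5b, Wnt6, Wnt9a, Dkk3, Wif1 and Axin2 among the calls lost. Without GFP- replicate 1 there were 8 higher and 5 lower, and without GFP- replicate 2 there were 9 and 3.

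The FGF pathway gave 6 members higher, 4 lower and a median of -0.33 over 21 tested (14.5 and 17.5% of protein-coding genes), Fgf8 being filtered. Fgf10, a ligand of the greater epithelial ridge, was higher (73.6 and 61.4 against 12.9 and 17.98 CPM, log2 fold change 2.13, SE 0.24, adjusted p = 0.00149). Fgf3, which acts in otic induction, stood at 6.87 and 6.59 against 0.128 and 0 CPM (log2 fold change 6.61, SE 0.99, adjusted p = 0.00321), and Fgf20, a ligand required for outer compartment development, was higher on 3 counts in the GFP- libraries (ratio 63.2, exact 95% interval 20.8 to 314). None of the 8 ligands tested was lower within the limits. Of the receptors 2 were higher and 2 lower. Fgfr3 was higher as given above, Fgfrl1, a receptor that lacks the kinase domain, was higher (135 and 145 against 38.98 and 44.5 CPM, log2 fold change 1.75, SE 0.18, adjusted p = 0.00121), and Fgfr1 and Fgfr4 were lower at 116 and 56.4 against 589 and 564 CPM and 26.9 and 11.9 against 296 and 183 CPM (-2.74 and -3.63 on the log2 scale, SE 0.37 and 0.46). Fgfr2 was not called, and its GFP+ libraries lay far apart (51.4 and 10.3 against 137 and 161 CPM). Per kilobase of exon, the level of Fgfr3 was 66.7 and 2.03 CPM in GFP+ and GFP- cells and that of Fgfr1 10.7 and 71.5.

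The inhibitors and targets of FGF signalling did not move together. Spry2 was higher (65.8 and 90.4 against 22.3 and 21.1 CPM, log2 fold change 1.85, SE 0.22, adjusted p = 0.00174), Spry4, a related feedback inhibitor, was lower (16.4 and 8.28 against 62.6 and 48.9 CPM, log2 fold change -2.18, SE 0.36, adjusted p = 0.00413), and so was Etv4, a transcription factor induced by FGF (6.02 and 6.27 against 65.4 and 30.7 CPM, log2 fold change -2.97, SE 0.40, adjusted p = 0.00239). Etv5, its close relative, stood at 60.3 and 58.8 against 61.97 and 49.00 CPM (log2 fold change 0.103). With the offsets Spry4 and Etv4 lost their calls, and without either GFP- library 4 members of the pathway were higher and 3 lower.

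In the TGF-beta and BMP pathway 9 members were higher and 9 lower of 32 (14.5 and 17.5% of protein-coding genes), and the antagonists gave no member that was higher. Gdf6, a BMP family ligand and a P6 gene of the study, stood at 224 and 238 CPM in the GFP+ libraries and 4.495 and 4.87 CPM in the GFP- libraries (log2 fold change 5.62, SE 0.21, adjusted p = 5.38e-04). Inhba, a subunit of activin A, stood at 116 and 121 against 2.65 and 3.45 CPM (log2 fold change 5.28, SE 0.23, adjusted p = 5.38e-04), and Bmp6 at 196 and 272 against 27.8 and 53.01 CPM (log2 fold change 2.53, SE 0.36, adjusted p = 0.00278). These ligands and Tgfb2 (1.598 on the log2 scale) were higher, and Gdf10, Tgfb1 and Tgfb3 lower, with Gdf10 at 30.9 and 7.79 against 353 and 335 CPM (log2 fold change -4.16, SE 0.64, adjusted p = 0.00342). Of the receptors Bmpr1b was higher at 24.1 and 39.8 against 6.23 and 7.05 CPM (log2 fold change 2.27, SE 0.32, adjusted p = 0.00261), as were Acvr2a, Bmpr2 and Tgfbr1 with log2 fold changes of 1.61, 1.16 and 1.07. Acvr1 was lower (log2 fold change -1.19, SE 0.23, adjusted p = 0.00676), and Tgfbr2 was not called, with GFP+ values of 60.8 and 12.1 CPM.

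Nog, the BMP antagonist noggin, had no count in either GFP+ library and stood at 2.44 and 1.67 CPM in the GFP- libraries, which made it at least 11.9-fold lower against a floor of 3 counts per library. Chrd, which encodes chordin, was lower at 2.19 and 1.74 against 17.6 and 12.9 CPM (log2 fold change -2.96, SE 0.37, adjusted p = 0.00203), as was Fst, the activin antagonist follistatin, with a log2 fold change of -2.08. The Id genes, targets of BMP signalling, split: Id4 was higher (138 and 179 against 10.3 and 12.6 CPM, log2 fold change 3.796, SE 0.24, adjusted p = 5.60e-04), Id3 lower (69.95 and 49.8 against 367 and 369.9 CPM, log2 fold change -2.62, SE 0.24, adjusted p = 9.52e-04), and Id1 and Id2 were not called. Without GFP+ replicate 1 the pathway gave 8 higher and 15 lower, without GFP- replicate 1 it gave 4 and 2, without GFP- replicate 2 it gave 5 and 3, and with the offsets 8 and 5, with Nog, Fst, Tgfb3, Acvr1, Bmpr2 and Tgfbr1 among the calls lost.

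**Figure D4:**
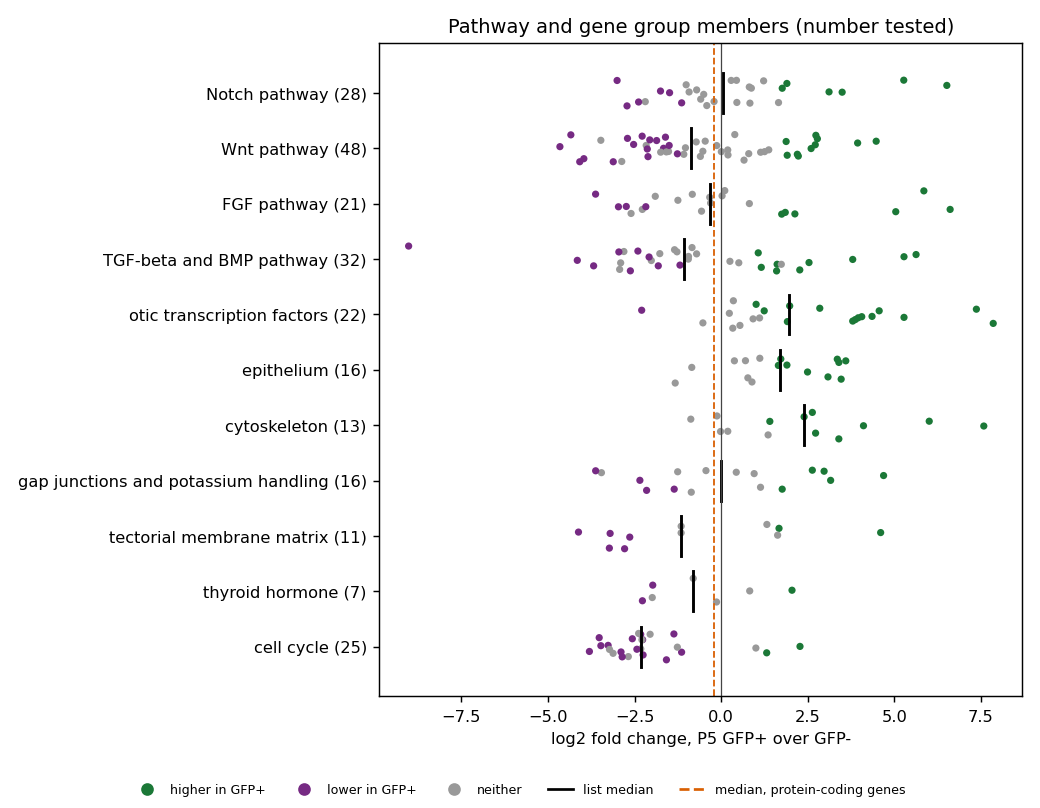
Log2 fold change of GFP+ over GFP- cells at P5 for each tested member of 11 gene lists, with list medians as black bars and the median of protein-coding genes as a dashed line. Otic transcription factors and cytoskeletal genes centre to the right (medians 1.94 and 2.39) and cell cycle genes to the left (median -2.33). The otic and cytoskeletal lists hold genes that the study reported as enriched in P6 GFP+ cells.

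Genes of proliferation were lower in GFP+ cells. Of 14 such genes 11 were lower and none higher (17.5 and 14.5% of protein-coding genes), with a median of -2.50. Mcm5, a subunit of the replicative helicase, stood at 3.403 and 2.13 CPM in the GFP+ libraries and 42.1 and 35.05 CPM in the GFP- libraries (log2 fold change -3.81, SE 0.32, adjusted p = 8.56e-04), and Cdk1, the kinase of mitotic entry, at 3.52 and 1.64 against 30.4 and 28.8 CPM (log2 fold change -3.52, SE 0.41, adjusted p = 0.00163). Mki67 and Top2a, markers of cycling cells, were not called, with 46.4 and 9.21 against 122 and 108 CPM and 28.02 and 5.94 against 115 and 102 CPM. In both genes GFP+ replicate 1 lay far above replicate 2, and the proliferation genes summed to 169 and 81.2 CPM in the GFP+ libraries and 636 and 592 CPM in the GFP- libraries. The inhibitors divided, with Cdkn1b and Rb1, the retinoblastoma gene (101 and 109.9 against 42.96 and 41.8 CPM, log2 fold change 1.31, SE 0.17, adjusted p = 0.00213), higher and Cdkn1c and Cdkn2b lower at 14.7 and 5.89 against 72.5 and 76.6 CPM and 2.55 and 1.85 against 11.9 and 9.17 CPM. Cdkn1a stood at 269.7 and 345 against 179 and 128 CPM and was not called (adjusted p = 0.016). Ccnd3, a D cyclin, was lower (33.6 and 41.7 against 96.8 and 97.5 CPM, log2 fold change -1.37), but its value was 0.02 with the offsets. Over all 25 cell cycle genes 2 were higher and 14 lower, against 3 and 20 without GFP+ replicate 1, 1 and 7 without either GFP- library and 2 and 10 with the offsets.

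Transcription factors of the otic epithelium were mostly higher, with 14 higher and 1 lower of 22 (14.5 and 17.5% of protein-coding genes) and a median of 1.94. Without Prox1, Rorb and Emx2, which are among the 20 P6 genes of the study, 11 of 19 were higher and the median was 1.24. The study also reported Sox2, Sox21, Rora, Sall1, Sall3, Gata3 and Id4 as enriched in P6 GFP+ cells. Both counts are thus in part set by how the list was chosen. Beside Prox1 and Rorb, Rora, a second orphan nuclear receptor of the family, stood at 1054 and 1410.1 against 52.5 and 67.96 CPM (log2 fold change 4.35, SE 0.30, adjusted p = 6.13e-04). Sall1 and Sall3, zinc finger factors, were higher with log2 fold changes of 4.56 and 3.95, as were Sox6 (162 and 172 against 8.93 and 11.1 CPM, log2 fold change 4.06, SE 0.21, adjusted p = 5.38e-04), Sox21 (106 and 183 against 8.48 and 11.3 CPM, log2 fold change 3.87, SE 0.34, adjusted p = 8.88e-04) and Emx2, a homeodomain factor that sets hair bundle orientation (58.8 and 88.4 against 1.39 and 2.403 CPM, log2 fold change 5.28, SE 0.38, adjusted p = 6.70e-04). Gata3, the zinc finger factor mutated in a syndrome with deafness, was higher (407 and 461 against 54.7 and 66.05 CPM, log2 fold change 2.85, SE 0.22, adjusted p = 7.13e-04), while Gata2 was lower (17.9 and 10.3 against 59.7 and 78.9 CPM, log2 fold change -2.296, SE 0.32, adjusted p = 0.00258) and lost its call with the offsets. The placodal genes Eya4 and Eya1 had smaller differences (1.98 and 1.24 on the log2 scale), and Eya1 lost its call with the offsets. Sox9 and Sox10 were within 0.54 of 0 and were not called.

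Epithelial junction genes were higher in 9 of 16 and lower in none (14.5 and 17.5% of protein-coding genes), with a median of 1.68. The study reported Cldn3, Cldn7, Cldn9, F11r, Marveld2, Ildr1 and Grhl2 among genes enriched in P6 GFP+ cells. Cdh1, E-cadherin, stood at 407 and 466 CPM in the GFP+ libraries and 108 and 157 CPM in the GFP- libraries (log2 fold change 1.72, SE 0.25, adjusted p = 0.00298). Cldn9, a claudin needed for hearing, stood at 423 and 487 against 31.5 and 57.7 CPM (log2 fold change 3.35, SE 0.34, adjusted p = 0.0012), and Marveld2 and Ildr1, which form tricellular junctions and are both deafness genes, at 38.5 and 34.4 against 3.55 and 5.05 CPM and 113 and 141 against 9.31 and 14.8 CPM (3.08 and 3.396 on the log2 scale). Grhl2 and Esrp1, a transcription factor and a splicing factor of epithelia, were higher by 3.596 and 3.46. The keratins Krt8 and Krt18 were not called, at 43.4 and 71.02 against 23.9 and 46.5 CPM and 63.8 and 55.5 against 24.5 and 39.9 CPM, and the lowest members were Cldn3 and Cldn4 (-0.85 and -1.33).

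Cytoskeletal genes were higher in 8 of 13 (14.5% of protein-coding genes), and in 6 of 11 without Tppp and Tsga14. All 13 were reported by the study as enriched in P6 GFP+ cells of this line. These counts are thus in part set by how the list was chosen. Tppp, a tubulin polymerising protein, stood at 103 and 179 CPM in the GFP+ libraries and 1.54 and 2.85 CPM in the GFP- libraries (log2 fold change 6.005, SE 0.45, adjusted p = 7.13e-04). Epb4.1, protein 4.1 of the membrane skeleton, stood at 602 and 864 against 107 and 130.2 CPM (log2 fold change 2.63, SE 0.27, adjusted p = 0.00126), Tmod1, which caps actin filaments, at 394 and 491 against 55.2 and 78.8 CPM (log2 fold change 2.72, SE 0.27, adjusted p = 0.00113), and Snph, a syntaphilin that anchors mitochondria to microtubules, at 79.6 and 81.3 against 4.37 and 4.96 CPM (log2 fold change 4.11, SE 0.20, adjusted p = 5.38e-04). Stmn1, which depolymerises microtubules, and Gsn, the actin severing protein gelsolin, showed overlapping libraries, at 51.2 and 61.4 against 51.8 and 62.4 CPM and 211 and 385 against 289 and 360.5 CPM.

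Of the connexins Gjb6, connexin 30, was higher (274 and 485 against 40.3 and 56.7 CPM, log2 fold change 2.97, SE 0.35, adjusted p = 0.0017), and Gja1 and Gjc1 were lower, with log2 fold changes of -2.35 and -2.15. Of the potassium channels and transporters 4 of 10 were higher (14.5% of protein-coding genes). Kcnj16, a partner of Kcnj10, stood at 507 and 581 against 14.5 and 27.7 CPM (log2 fold change 4.69, SE 0.38, adjusted p = 8.05e-04), Slc12a7, the potassium chloride cotransporter of Deiters' cells, at 273 and 338 against 85.7 and 94.8 CPM (log2 fold change 1.76, SE 0.21, adjusted p = 0.00165), and Atp1b2, a subunit of the sodium pump, at 433 and 512 against 76.5 and 76.3 CPM (log2 fold change 2.63, SE 0.21, adjusted p = 7.76e-04). Slc12a2, the cotransporter of stria and fibrocytes, was lower (301 and 226 against 654 and 696 CPM, log2 fold change -1.36, SE 0.24, adjusted p = 0.00485) but not when GFP+ replicate 2 or either GFP- library was left out. The receptors for thyroid hormone, which times cochlear maturation, stood on opposite sides: Thrb was higher at 197 and 240.0 against 47.8 and 58.2 CPM (log2 fold change 2.04, SE 0.21, adjusted p = 0.00122) and Thra lower at 29.1 and 20.3 against 100.1 and 94.5 CPM (log2 fold change -1.98, SE 0.23, adjusted p = 0.00162). Dio2, the activating deiodinase, was not called (114 and 20.7 against 338 and 198 CPM). Thra lost its call with the offsets, and Dio3 was filtered.

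The largest differences among protein-coding genes with at least 10 CPM in the higher group are given by direction, 15 in each. Of the 15 higher 7 were on the gene lists, among them Umodl1, Rorb, Tsga14, Gm5887 and Dgkb from the P6 genes of the study, and of the 15 lower 2 were, C1qa and Hba-a1. Of those higher, Gm10115, a predicted gene inside Celf2 on the same strand (chr2:6871499-6872726, build NCBIM37), stood at 10.3 and 12.1 CPM in GFP+ libraries and had no count in GFP- libraries, at least 171-fold higher against the floor. Prdm12, a regulator of sensory neuron fate, stood at 17.3 and 30.03 against 0 and 0.0223 CPM on 1 count in GFP- cells (ratio 2202, exact 95% interval 394 to 87063). Phxr4, protein-coding in this annotation but a long non-coding RNA in RefSeq, also rested on 1 count (ratio 1193, interval 213 to 47224) and Akr1cl on 3 (ratio 454.7, interval 155 to 2212). Prdm12 and Akr1cl overlap annotated transcripts on the other strand. Htr1d, a serotonin receptor, stood at 37.1 and 57.8 against 0.0856 and 0.111 CPM (log2 fold change 8.86, SE 0.43, adjusted p = 5.38e-04), Rbp7, a retinol binding protein, at 54.8 and 73.2 against 0.0642 and 0.378 CPM (log2 fold change 8.16, SE 0.63, adjusted p = 7.31e-04), and Dgkb, a diacylglycerol kinase, at 253 and 337 against 0.813 and 1.29 CPM (log2 fold change 8.13, SE 0.36, adjusted p = 5.38e-04). Fam124b, Prss48, Gm5887 and the histone genes Hist1h4d and Hist1h1e completed the 15 with Umodl1, Rorb and Tsga14, and their log2 fold changes were 7.49, 7.47, 7.998, 8.12 and 7.54.

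At the other end, Hnrnpa0, an RNA-binding protein, had the largest decrease, at 0.365 and 0.5995 CPM in the GFP+ libraries and 70.2 and 81.1 CPM in the GFP- libraries (log2 fold change -7.27, SE 0.31, adjusted p = 5.38e-04). Matn4, a cartilage matrix protein, stood at 5.47 and 0.654 against 210.4 and 155 CPM (log2 fold change -5.92, SE 0.86, adjusted p = 0.00289), Eln, elastin, at 4.07 and 0.872 against 122 and 134 CPM (log2 fold change -5.71, SE 0.64, adjusted p = 0.00149), and Emilin1, an elastic fibre protein, at 9.66 and 3.05 against 344 and 303 CPM (log2 fold change -5.68, SE 0.57, adjusted p = 0.00116). Plvap, a protein of fenestrated endothelium, stood at 1.46 and 0.545 against 57.3 and 54.2 CPM (log2 fold change -5.81, SE 0.44, adjusted p = 7.13e-04), and Snai1, a factor of epithelial to mesenchymal transition, at 0.972 and 0.218 against 33.4 and 25.1 CPM (log2 fold change -5.64, SE 0.60, adjusted p = 0.00133). Mmp3, Irg1, C1qa and Hba-a1 had uneven replicates or few counts, and Chst7, Scarf2, Col16a1, Ssbp4 and Rps12-ps3 completed the 15, between -5.67 and -5.31. Rps12-ps3 is annotated as protein-coding, lies inside Pdzd8 on the other strand and is named as a copy of Rps12, so its reads are uncertain.

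Gene types other than protein-coding were counted apart. Of 3202 such genes 1203 (37.6%) were higher and 191 (5.97%) lower, with a median log2 fold change of 2.14. The medians were 0.54 for 997 pseudogenes, 3.30 for 793 processed transcripts, 1.61 for 568 lincRNAs, 3.22 for 188 snoRNAs, 5.76 for 83 snRNAs, 5.16 for 60 miRNA genes and 6.49 for 40 misc_RNA genes. In the last 3 types no gene was lower. Of 1257 such genes whose span lay inside a protein-coding gene, 715 (56.9%) were higher and the median was 4.50, against 334 of 1510 (22.1%) and 0.91 for those elsewhere. The counting was not stated to use strand, so reads of these genes and of the genes around them cannot be told apart. Reads outside genes moved with the fractions as given above, and their part in these values was not tested.

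**Figure D5:**
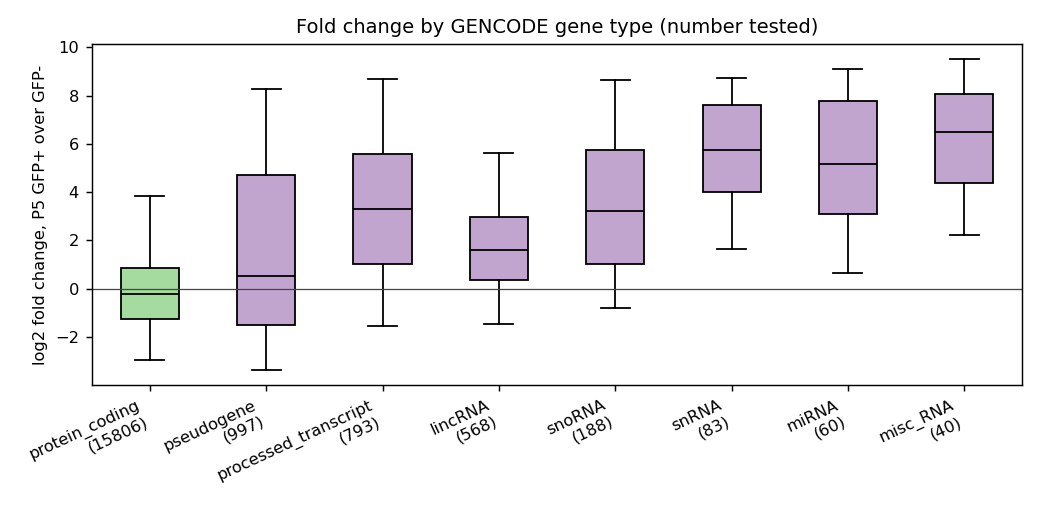
Log2 fold change of GFP+ over GFP- cells at P5 by gene type, with boxes from the lower to the upper quartile, lines at the median and whiskers from the 5th to the 95th percentile of the genes tested. The protein-coding median is -0.22, and the other types shown have medians from 0.54 to 6.49.

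Among these genes the 5 largest increases, Gm16564, Gm15412, Gm16305, Gm16139 and Gm16351, had no count in GFP- cells, and each lay inside a protein-coding gene on the other strand: Kif26b, Odz4, Dennd1b, Fgd4 and Sorbs2. They were at least 208-, 192-, 188-, 177- and 165-fold higher against the floor of 3 counts per library. The 5 largest decreases were Cebpd, ENSMUSG00000078200, which the annotation does not hold, Rps2-ps10, Gm13597 and Gm6969. Cebpd, a transcription factor of the C/EBP family that this annotation lists as a pseudogene and RefSeq as protein-coding, stood at 0.486 and 0.545 against 24.8 and 20.8 CPM (log2 fold change -5.46, SE 0.36, adjusted p = 5.64e-04).

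Some lists bear on the state of the RNA. Replication-dependent histone mRNAs end without a poly(A) tail, and of 11 such genes 6 passed the filter and 3 were higher (14.5% of protein-coding genes). Hist1h1e, among the 3, stood at 22.8 and 19.4 against 0.0856 and 0.134 CPM (log2 fold change 7.54, SE 0.44, adjusted p = 5.55e-04). A gene with so few GFP- counts passed the filter through the GFP+ libraries, so this count is in part set by the filter. Of 15 immediate early genes found, which dissociation is known to induce, 1 was higher and 6 lower (14.5 and 17.5% of protein-coding genes). Fos stood at 286 and 514 against 383 and 1029 CPM, outside the limits, and Ier2 at 2.796 and 3.32 against 94.4 and 136 CPM (log2 fold change -5.23, SE 0.28, adjusted p = 5.38e-04). Of 12 reference genes 2 were higher and 2 lower (14.5 and 17.5% of protein-coding genes). Actb, cytoplasmic actin, stood at 784 and 699 against 651 and 776 CPM (log2 fold change 0.06), while Rplp0, a ribosomal protein, was lower (127 and 125 against 914 and 1029.7 CPM, log2 fold change -2.95, SE 0.22, adjusted p = 7.15e-04) and Ywhaz, a 14-3-3 protein, higher (1053 and 1101 against 304 and 357 CPM, log2 fold change 1.703, SE 0.23, adjusted p = 0.00237). Gapdh, higher by 2.10 on the log2 scale, has many processed copies in the genome, so its counts are uncertain. The part of these differences in the results was not tested.

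The same fractions of P5 explants kept in DAPT gave a comparison of 4 libraries that share none with the above. There 2379 (14.9%) of 15942 protein-coding genes were higher and 2969 (18.6%) lower, and of the other gene types 42.8% were higher and 5.74% lower (over all genes, 19.8% higher and 16.4% lower). Of the genes higher in DMSO 1721 were higher in DAPT, which is 75.0% of the DMSO calls and 72.3% of the DAPT calls, and 2230 were lower in both, 80.8% and 75.1%. No gene was called in opposite directions. Of the supporting cell markers 24 of the 25 called in DMSO were called in the same direction in DAPT. The exception, Hes5, did not pass the filter on low counts in the DAPT libraries. DAPT and DMSO libraries share the sort and the library series of each fraction.

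To ask whether the fractions differed in another way at P0, the interaction of age and fraction was tested over the 8 DMSO libraries. Of 18274 protein-coding genes 3 (0.0164%) had a higher and 4 (0.0219%) a lower GFP+ to GFP- difference at P5 than at P0, and of the other gene types 0.0201% had a higher one (over all genes, 0.0172% in each direction). Tal1, a basic helix-loop-helix factor known from blood development, stood at 153 and 151 CPM in P0 GFP+ libraries and at 1.22 and 0.551 CPM in P5 GFP+ libraries, with all GFP- libraries at 0.998 CPM or lower (difference of log2 fold changes -7.65, SE 0.58, adjusted p = 0.00324). Pdzk1ip1 (chr4:114761313-114766504, build NCBIM37), which neighbours Tal1 (chr4:114729031-114744360), gave -5.42 (SE 0.33), with 153 and 135 CPM at P0 and 4.34 and 4.24 CPM at P5 in GFP+ cells. Syt6, a synaptotagmin, and Slc7a5, an amino acid transporter, gave -5.49 and -4.19. Inpp5j, an inositol phosphatase, went the other way, from 11.5 and 10.8 CPM at P0 to 269.7 and 496 CPM at P5 in GFP+ cells (difference 4.75, SE 0.42, adjusted p = 0.00778), as did Tmem229a, by 2.93. Cntfr, the receptor of ciliary neurotrophic factor, gave 3.11, being lower in GFP+ cells at both ages but less so at P5. In freshly sorted GFP+ cells alone, the study had reported a fall of Tal1 and Syt6 and a rise of Cntfr with age up to P6. Without either P0 GFP+ library all 7 genes lost their calls, without P5 GFP- replicate 1 all but Pdzk1ip1 did, and without P5 GFP- replicate 2 all but Pdzk1ip1 and Syt6 did. Cntfr and Tmem229a also lost theirs with the replicate block and without either P5 GFP+ library. Tal1 was the one gene of the lists with a difference between ages within the limits. The P0 and P5 GFP+ libraries belonged to separate library series, so age and series cannot be told apart in these fractions.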

How the data were processed

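Cells were sorted by GFP from cultured cochlear explants, total RNA was extracted with Trizol, and libraries were made with a TruSeq v2 low sample protocol and read as paired ends of 100 bases. By the study's methods, cDNA from fewer than 20000 cells was pre-amplified with a NuGEN Ovation kit. The authors deposited raw counts of reads per gene, 1 table per library. The submitters' processing notes name TopHat 1.4.0, HTSeq, DESeq 1.9.2 and build mm9 (the study's methods give a later TopHat release), and the strand setting of the counting is not given in the sources used here. Each table held 36536 identifiers and 5 closing lines (reads outside genes and the like), which stayed out of library sizes, and 34391 identifiers matched the GENCODE annotation on NCBIM37, the Ensembl name of that build.

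Groups were taken from the sample titles. Counts were filtered with filterByExpr (minimum count 10, minimum total 15), scaled by TMM and tested with the quasi-likelihood test of edgeR 4.0.16 in R 4.3.3, over the 4 libraries of each fraction comparison and over the 8 DMSO libraries for the interaction of age and fraction. Genes passed with a Benjamini-Hochberg adjusted p under 0.01 and a fold over 2, and the SE was obtained from the F statistic as the size of the log2 fold change over its root. CPM are counts scaled by TMM library size. The study itself compared fractions with DESeq and Cufflinks. Library depths were 19008122 to 40746116 gene counts. Intervals and floors (3 counts) cover counting error only. The fits were tested on simulated data. Named genes are list members, the 15 largest protein-coding changes per direction past the limits whose higher group averaged 10 CPM or more and whose libraries did not overlap, 5 per direction of other types, and up to 5 per direction of the age difference. Members and lists were chosen with earlier results of these data known. Alternatives were DESeq2 1.42.0, other scalings, no filter, thinned libraries, all 8 groups in one fit, protein-coding genes alone, no mitochondrial genes, offsets for GC content and exonic length, a replicate block, an adjusted p limit of 0.05 and each replicate left out. Some genes on the lists are counted but not reported by name here.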

Additional observations from a re-analysis of the deposited data

Results flagged for a closer look

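A test of the interaction found 7 protein-coding genes whose GFP+ to GFP- difference was not the same at P5 and P0 in DMSO, and the values are differences of log2 fold changes, P5 minus P0. They were -7.652 for Tal1, -5.493 for Syt6, -5.424 for Pdzk1ip1 and -4.192 for Slc7a5, and 2.929 for Tmem229a, 3.109 for Cntfr and 4.751 for Inpp5j. Slc7a5 changed direction between the ages, from 2.13 (P0) to -2.01 (P5) on the log2 scale. Tmem229a was higher in GFP+ cells at both ages, by 1.22 at P0 and 4.20 at P5. With the replicate block Cntfr and Tmem229a lost their calls.

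Reads outside annotated genes, which entered no comparison, took 53.326 and 55.408 percent of the records of the P5 DMSO GFP+ libraries, above the 13.7 and 7.16 percent of the GFP- libraries. The part of these reads in the gene results was not tested.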

How the results depend on the processing

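Of the 214 list genes called, 122 to 214 kept their call under each alternative and none was called in the opposite direction. The smallest numbers, 123 and 122, came without GFP- replicate 1 and 2, and offsets for GC content and exonic length kept 159. Offsets turned the sign of Ccnd3 to 0.025, of Fzd9 to 0.22 and of Tcf7l1 to 1.32 on the log2 scale (0.019, 0.22 and 1.31 with offsets and the replicate block). The replicate numbers did not pair the libraries (correlation of deviations 0.034 over 19008 genes in 2 pairs), and the block gave 1747 higher and 2712 lower protein-coding genes and 670 higher genes of other types. Offsets gave 1972 higher and 1647 lower protein-coding genes and 678 higher genes of other types, and offsets with the block 1491, 1712 and 387. Without the filter on low counts 4648 protein-coding genes were lower in DMSO and 4652 in DAPT. Lower genes of other types numbered 317 and 318 without the filter, 345 and 344 at an adjusted p limit of 0.05, and 304 in DMSO with all 8 groups in the fit. For the age difference the counts of higher and lower protein-coding genes were 24 and 20 at a limit of 0.05, 56 and 34 without the filter and 162 and 129 with DESeq2, and those of other types 2 higher at the 0.05 limit, 2 higher without the filter, and 6 higher and 9 lower with DESeq2. Upper quartile factors gave 3120 higher and 1982 lower protein-coding genes and library totals 1658 and 3948. Leaving out 1 replicate gave 791 to 2502 higher and 1019 to 3940 lower protein-coding genes in DMSO and 476 to 1910 and 548 to 3209 in DAPT. For other types it gave 234 to 1231 and 63 to 248 in DMSO and 138 to 972 and 47 to 192 in DAPT, and for the age difference 0 to 72 and 0 to 34 protein-coding genes and 0 to 2 and 0 to 4 others. A lone library was then assumed to vary like the other group. The cause of these shifts was not tested. With 2 libraries per group, smaller differences of genes at few counts were not detectable at this depth.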

Other observations

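Some gene families outside the lists were described after their values were seen, without a test. Of 78 cytoplasmic ribosomal protein genes 47 were lower in P5 GFP+ cells and 1, Rpl31, was higher (log2 fold change 1.41), with a median of -1.32 (17.5% of protein-coding genes lower, median -0.22), and with offsets for GC content and exonic length 45 were lower. Many of these genes have processed copies, so their counts are uncertain. Subunits of respiratory complex I gave 13 lower of 36 and none higher in the edgeR test, and 12 lower with the offsets (17.5% of protein-coding genes lower). At an unadjusted p under 0.05, 28 were lower and 0 higher, but 9781 of all 15806 protein-coding genes passed that limit in either direction. Mitochondrial ribosomal proteins gave 16 lower of 72, near the 17.5% of all protein-coding genes, and 1 higher, Mrpl48 (3.07), and with the offsets 9 were lower.

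Collagen genes gave 23 lower and 5 higher of 41 (17.5 and 14.5% of protein-coding genes), with a median of -2.96. The 5 that rose were Col10a1 (5.05), Col17a1 (3.08), a transmembrane collagen of hemidesmosomes, Col22a1 (2.46), Col13a1 (2.24) and Col4a3 (1.30), a basement membrane chain, all as log2 fold changes. Of 24 unconventional myosins 7 were higher and 2 lower (14.5 and 17.5% of protein-coding genes). Those that rose included Myo3a (6.58), Myo7b (5.38), Myo15 (4.97) and Myo3b (4.17), of which Myo3a, Myo15 and Myo3b are motors of hair cell stereocilia, and those that fell were Myo18a (-1.61) and Myo1c (-2.24). Claudins gave 7 higher and 2 lower of 21, to be set beside the same shares.

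Ighm, an immunoglobulin constant gene outside the naming rule, had a larger GFP+ to GFP- difference at P5 than at P0, by 5.44 on the log2 scale (SE 0.50, adjusted p = 0.00839 in the interaction test). It stood at 83.2 and 97.8 CPM in the P5 GFP+ libraries and 1.14 and 0.814 CPM in the P0 GFP+ libraries. Its call was lost when any GFP+ library of either age, or either P5 GFP- library, was left out.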
